A study of Mus musculus with 4 samples.

Results

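The genes at the centre of PI3K, Akt and mTOR signaling were examined in RNA-seq libraries of tibial bone marrow from obese mice with or without exercise. The 9 core genes were chosen by name from their place in the pathway, as 4 catalytic subunits of class I PI3K (Pik3ca, Pik3cb, Pik3cd and Pik3cg), 2 regulatory subunits (Pik3r1 and Pik3r5), 2 Akt kinases (Akt1 and Akt2) and Mtor. They were 9 of 55401 genes in the deposited tables, they had 67 annotated transcripts, and all 9 were expressed highly enough to be tested among 18596 genes. The FPKM of the transcripts of a gene were added, and the libraries were then scaled to each other. Every level given here is such a scaled FPKM, which counts sequenced fragments per length of transcript, so that levels can be compared between genes. Where 4 values are given in a row, they are those of Ob replicates 1 and 2 and then of Ob + Exe replicates 1 and 2.

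Both groups were male wild-type C57/B6 mice on a high-fat diet (HFD) from 8 weeks of age, and the Ob group did not exercise. The Ob + Exe group also ran on a treadmill for 12 weeks, 1 h per day on 6 days per week, after 6 weeks of diet alone. All the libraries came from obese mice, so no lean mice stand beside them here. Each group had 2 libraries out of 9 mice, and the labels do not say whether a library holds the marrow of a single mouse, so the p values measure only the spread between these libraries.

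Class I PI3K phosphorylates a lipid of the plasma membrane when growth factors, cytokines, antigens or chemokines bind their receptors. The lipid that results recruits Akt, which is then phosphorylated and acts on substrates such as the FoxO transcription factors, GSK3 and the TSC complex. TSC restrains the small GTPase Rheb, and Rheb activates mTOR complex 1, which drives ribosome production and translation. In blood cells the delta and gamma catalytic isoforms carry much of this signaling, and the alpha and beta isoforms are found in nearly all tissues. These steps run through lipids and phosphorylation, which RNA levels do not measure.

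The libraries held 44310500 to 53038200 read equivalents, that is, the covered bases over the 150 bases of a read. The labels name bone marrow as tissue, but also mesenchymal stem cells and fibroblast as cells. Among 10 stromal and fibroblast markers, Pdgfra was between 0.265 and 0.385 and Lum between 0.248 and 0.818, but Dcn was between 3.42 and 6.35 and Cxcl12, a chemokine of marrow stroma, between 89.3 and 143. The neutrophil granule protein S100a8, in contrast, was between 12006 and 35688, and the globin Hba-a1 was between 19959 and 24142. The libraries are therefore described as whole marrow. In such bulk RNA, fewer cells of a type and less RNA per cell cannot be told apart.

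No core gene changed after exercise by the thresholds of the study, which ask for p under 0.05 before adjustment together with a log2 fold change of more than 1 (limma). Of all genes tested, 3.71% passed both thresholds and 5.02% had an unadjusted p under 0.05, and 0 of the 9 core genes did either. Adjusted over all genes, limma gave p values between 0.960 and 0.999 for them. The log2 fold change was above 0 for 8 of the 9, with a median of 0.18, and for 47.9% of all genes, whose median was -0.02. Without scaling, the number above 0 was 6, and it was between 6 and 8 when each library was left out in turn. For 3 genes, Pik3ca, Pik3r5 and Akt2, both Ob + Exe libraries were above both Ob libraries. This was 3 of 9, and the groups did not overlap for 32.7% of all genes.

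**Figure D1:**
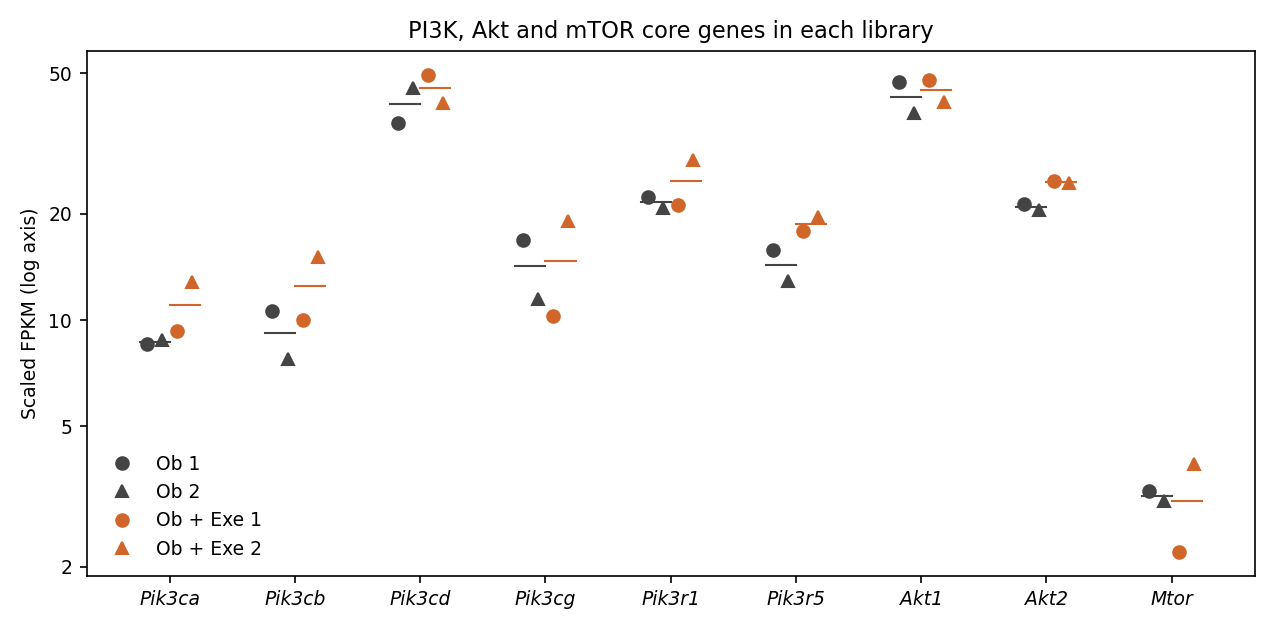
Scaled FPKM of the 9 core genes in each of the 4 libraries, on a log axis. Circles are replicate 1, triangles replicate 2, and horizontal lines group means of 2 libraries. The groups are separate for Pik3ca, Pik3r5 and Akt2, and Akt1 and Pik3cd have the highest levels.

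The core genes differed more from each other than between the groups. Akt1 and Pik3cd had the highest means over the 4 libraries, 43.8 and 43.1, and neither was above the other in more than 2 libraries. Pik3r1 at 23.2 and Akt2 at 22.8 followed, with Pik3r1 higher in 3 of 4 libraries. The next were Pik3r5 at 16.5, Pik3cg at 14.4, Pik3cb at 10.8 and Pik3ca at 9.86. Pik3r5 was above Pik3cg, and Pik3cb above Pik3ca, in 3 of 4 libraries each. Mtor was lowest at 3.12, below Pik3ca in all 4 libraries. Akt1 stood at percentile 92.2 of the mean levels of all genes tested and Mtor at percentile 48.5.

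Gene positions are those of GRCm38. Among the catalytic subunits, Pik3cd (chr4:149649168-149702571, minus strand) encodes the delta isoform, which acts downstream of antigen and cytokine receptors in leukocytes. Its level was 36.1 and 45.5 without exercise, compared with 49.6 and 41.1 after it. The groups overlapped, as Ob + Exe replicate 2 lay between the Ob libraries. This was a log2 fold change of 0.15 (SE 0.227, limma, adjusted p = 0.975). Pik3cg (chr12:32173473-32208659, minus strand) encodes the gamma isoform, which is activated by chemokine and other G protein-coupled receptors. It was at 16.9 and 11.5 in the Ob group, and 10.2 and 19.1 after exercise. The Ob + Exe libraries were thus the lowest and the highest of the 4, and the log2 fold change was 0.00 (SE 0.376, limma, adjusted p = 0.999). Ob replicate 1 and Ob + Exe replicate 2 were the lower pair for Pik3cd and the higher pair for Pik3cg.

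Pik3ca (chr3:32397671-32468486, plus strand) encodes the alpha isoform, which responds to insulin and growth factor receptors. Its level was 8.55 and 8.78 in Ob marrow, against 9.31 and 12.8 in Ob + Exe marrow. Both Ob + Exe libraries were above the Ob libraries, with most of the difference in replicate 2. On the log2 scale the difference was 0.33 (SE 0.265, limma, adjusted p = 0.960). It was 0.095 without Ob + Exe replicate 2 and 0.56 without Ob + Exe replicate 1. Gm37123, which overlaps Pik3ca on the same strand, was between 0.461 and 2.04. Pik3cb (chr9:99036654-99140621, minus strand) encodes the beta isoform, which can be activated by receptor tyrosine kinases and by G proteins. Its level was 10.6 and 7.75 without exercise, compared with 9.98 and 15.1 after it. Ob + Exe replicate 1 lay between the Ob libraries, and replicate 2 was above all. The log2 fold change of Pik3cb, 0.43 (SE 0.312, limma, adjusted p = 0.960), was the highest of the core genes in this fit, but not with limma voom, without Ob replicate 2 or without Ob + Exe replicate 2. Leaving out each library in turn gave 0.13 to 0.72, the extremes being the fits that lacked either Ob + Exe library. Of Pik3cb, 4.34% of the 100-base stretches are shared with Gm12978 and Gm12992, so reads from those stretches are uncertain. Gm12978 was at 0.000371 and 0.281, and at 2.14 and 1.51, and so higher in both Ob + Exe libraries. Gm12992 was at 2.15 and 0.0979, and at 0.993 and 0.325. The part of these genes in the level of Pik3cb was not tested.

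The leukocyte isoforms Pik3cd and Pik3cg together made up most of the class I catalytic FPKM. Their share was 73.5% and 77.5% in the Ob group, and 75.6% and 68.4% after exercise. The difference of -3.51 percentage points lay within the spread of the libraries (exact permutation test, two-sided, p = 0.667, when 0.33 is the smallest p that 2 against 2 libraries can give). Without Ob + Exe replicate 2 the difference turned to 0.119, and without replicate 1 it was -7.14. With only the most abundant transcript of each gene it was -42.9. For Pik3cd that transcript was ENSMUST00000122059.7, listed at 0 in both Ob + Exe libraries, so this last value depends on the division among transcripts described below. Pik3cd alone held 46.7% to 62.7% of the catalytic FPKM and Pik3cg 12.9% to 23.4%. The share of Pik3cg was higher in Ob replicate 1 and Ob + Exe replicate 2 than in the other libraries, and that of Pik3cd was lower there.

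RefSeq (GRCm38.p6) gives Pik3cg a pair of neighbouring starts on the minus strand, and the 250 bases before each are printed to show the start region of this leukocyte isoform. The window before the main protein-coding model ENSMUST00000053215.13, chr12:32208660-32208909, holds 3 CpG dinucleotides and no match to any of the 6 motifs searched. The window before the neighbouring model ENSMUST00000085469.5, which was between 0 and 0.692, is chr12:32208471-32208720. It holds 5 CpG, 2 matches to GAGGAA, the core of sites for the myeloid factor PU.1, and 1 match to the FoxO core GTAAACA (capitals, either strand). The median over all 32851 RefSeq windows of this length is 6 CpG, and 23.25% of them hold GAGGAA and 3.166% GTAAACA. The windows overlap, and a match is no evidence of binding.
Pik3cg start of main coding model: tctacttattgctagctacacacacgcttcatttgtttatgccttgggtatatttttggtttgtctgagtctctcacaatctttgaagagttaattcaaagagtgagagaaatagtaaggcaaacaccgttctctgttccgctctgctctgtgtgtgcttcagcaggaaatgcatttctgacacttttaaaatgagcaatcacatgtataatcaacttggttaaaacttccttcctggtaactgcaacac
Pik3cg neighbouring start: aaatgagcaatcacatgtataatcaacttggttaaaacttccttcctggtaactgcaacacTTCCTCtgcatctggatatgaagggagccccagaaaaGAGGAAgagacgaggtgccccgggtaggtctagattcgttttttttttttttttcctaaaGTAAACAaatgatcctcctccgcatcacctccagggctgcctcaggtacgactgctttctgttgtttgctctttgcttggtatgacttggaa

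The regulatory subunits bind and stabilise the catalytic ones. Pik3r1 (chr13:101680563-101768217, minus strand) encodes p85 alpha and its shorter forms, the main partners of the alpha, beta and delta isoforms. Its level was 22.3 and 20.8 in Ob marrow, against 21.1 and 28.4 in Ob + Exe marrow. Ob + Exe replicate 2 was the highest, and the other 3 libraries were close together. A log2 fold change of 0.18 resulted (SE 0.236, limma, adjusted p = 0.971). Pik3r5 (chr11:68432121-68497849, plus strand) encodes p101, which links the gamma isoform to G protein subunits. It was at 15.7 and 12.9 without exercise, compared with 17.9 and 19.5 after it. The groups did not overlap, and with a log2 fold change of 0.39 (SE 0.227, limma, adjusted p = 0.960) Pik3r5 had the smallest p of the core genes. Left out in turn, the 4 libraries gave values between 0.24 and 0.53 for it.

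The regulatory genes outside the core set had values in both directions, and none passed the test. Pik3r2, which encodes p85 beta, was at 8.06 and 8.66 in the Ob group, and 7.37 and 6.88 after exercise (log2 fold change -0.23, SE 0.244, limma, adjusted p = 0.965). Pik3r6, which encodes the other regulatory subunit of the gamma isoform, was at 7.79 and 13.5, and at 15.8 and 9.88. Pik3r3 was between 0.481 and 0.904. Of the FPKM of these 5 regulatory genes, Pik3r1 held 40.9% and 36.7% in Ob marrow, against 33.7% and 43.4% in Ob + Exe marrow. Pik3r2 held 14.8% and 15.3%, and then 11.8% and 10.5%, so that its groups did not overlap.

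Ratios within a library, which the scaling does not move, compare the RNA of the subunits in bulk marrow. They do not measure the balance of the proteins. The p85-type regulatory genes (Pik3r1, Pik3r2 and Pik3r3) stood to the class IA catalytic genes (Pik3ca, Pik3cb and Pik3cd) at 0.559 and 0.490 without exercise, compared with 0.421 and 0.522 after it. Regulatory FPKM was thus below catalytic FPKM in every library. Pik3r5 and Pik3r6 together were 1.39 and 2.29 times Pik3cg in Ob marrow, against 3.29 and 1.54 times after exercise. Here the regulatory FPKM was above that of the catalytic subunit in every library. In Ob + Exe replicate 1, at 3.29, no protein-coding model of Pik3cg was above 0, as described below. The ratio of Pik3r6 to Pik3r5 was 0.495 and 1.04, and then 0.881 and 0.506, close to each other in Ob replicate 1 and Ob + Exe replicate 2.

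Pik3r1 has separate starts for the long and the short forms. The transcript ENSMUST00000055518.12, with a coding region of 724 codons (p85 alpha), held 95.2% to 98.0% of the gene. Its level was 21.2 and 19.9 in the Ob group, and 20.7 and 27.0 after exercise. The transcript ENSMUST00000035532.12, with 454 codons (p55 alpha), was at 0.603 and 0.728, and at 0.355 and 1.30. The 250 bases before both starts are printed because they differ in composition, with 30 CpG and 4 matches to the GC box GGGCGG (capitals, either strand) before the long form, at chr13:101768218-101768467, and 6 CpG and no match before the short form, at chr13:101692631-101692880, both on the minus strand (RefSeq, GRCm38.p6). Of all windows, 32.74% hold a GC box.
Pik3r1 p85 alpha start: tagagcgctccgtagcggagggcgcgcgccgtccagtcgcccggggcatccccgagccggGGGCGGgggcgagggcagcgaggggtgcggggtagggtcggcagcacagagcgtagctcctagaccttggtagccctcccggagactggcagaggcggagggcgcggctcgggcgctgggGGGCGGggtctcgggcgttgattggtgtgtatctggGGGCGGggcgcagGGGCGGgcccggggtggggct
Pik3r1 p55 alpha start: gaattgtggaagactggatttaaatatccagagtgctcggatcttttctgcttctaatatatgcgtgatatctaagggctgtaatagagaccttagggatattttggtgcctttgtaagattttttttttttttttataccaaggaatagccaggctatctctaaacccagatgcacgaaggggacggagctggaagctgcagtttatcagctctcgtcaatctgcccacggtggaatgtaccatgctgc

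The Akt kinases carry the signal from the membrane lipid to its substrates. Akt1 (chr12:112653821-112674884, minus strand), the most widely expressed isoform, was at 47.2 and 38.5 in Ob marrow, against 48.0 and 41.5 in Ob + Exe marrow. The groups overlapped, with replicate 1 above replicate 2 in both. The log2 fold change was 0.06 (SE 0.216, limma, adjusted p = 0.985). Akt2 (chr7:27591552-27640826, plus strand), the isoform best known for insulin signaling, was at 21.3 and 20.5 without exercise, compared with 24.7 and 24.5 after it. The groups did not overlap, and the SD pooled over both groups was smaller than for any other core gene. The means were 20.9 ± 0.549 and 24.6 ± 0.157 (SD, n = 2 each), a fold of 1.18. The log2 fold change of 0.24 (SE 0.199, limma, adjusted p = 0.960) did not pass the test, whose error is moderated over all genes. Of the 100-base stretches of Akt2, 4.01% are shared with the pseudogene Akt2-ps, which was between 0.366 and 0.833.

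The ratio of Akt2 to Akt1 was 0.451 and 0.532 in the Ob group, and 0.516 and 0.591 after exercise. Akt2 was thus below Akt1 in every library, and the groups overlapped.

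At Akt1, the start of the leading model and that of a model listed at 0 can be compared. ENSMUST00000001780.9, with a coding region of 480 codons, held 91.6% to 97.2% of the gene, and ENSMUST00000144550.8, from a start farther upstream, was listed at 0 in all 4 libraries. Both windows of 250 bases are printed for that reason, with chr12:112674277-112674526 before the leading model and chr12:112674885-112675134 before the other, both on the minus strand (RefSeq, GRCm38.p6). The former holds 31 CpG and 4 GC boxes, of which the last 2 overlap (capitals). The latter holds 7 CpG, no GC box and 1 FoxO core on the opposite strand (TGTTTAC, capitals).
Akt1 start of leading model: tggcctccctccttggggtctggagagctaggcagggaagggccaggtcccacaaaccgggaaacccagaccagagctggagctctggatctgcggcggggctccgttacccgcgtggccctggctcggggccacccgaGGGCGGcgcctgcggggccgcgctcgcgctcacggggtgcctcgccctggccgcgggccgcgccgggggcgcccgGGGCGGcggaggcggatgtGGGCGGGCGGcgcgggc
Akt1 upstream start: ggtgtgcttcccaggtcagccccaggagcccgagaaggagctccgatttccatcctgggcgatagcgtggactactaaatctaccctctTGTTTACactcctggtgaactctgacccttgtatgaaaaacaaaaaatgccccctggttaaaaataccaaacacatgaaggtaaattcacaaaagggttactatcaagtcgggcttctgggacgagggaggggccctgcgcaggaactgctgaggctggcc

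Over the 17 RefSeq windows of the core genes, 9 windows of 8 genes held a GC box, and none held the CRE motif TGACGTCA or the E-box CACGTG. Of all windows, 1.546% hold the CRE and 6.021% the E-box. The Ets core CCGGAA was found for Pik3ca and Mtor, in 2 windows, and 12.03% of all windows hold it. GAGGAA was found in 3 windows, of Pik3cg, Akt2 and Mtor. These counts describe letters only.

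Mtor (chr4:148448611-148557683, plus strand) encodes the kinase of both mTOR complexes. Its level was 3.28 and 3.07 in Ob marrow, against 2.20 and 3.92 in Ob + Exe marrow. The Ob + Exe libraries were the lowest and the highest, on either side of the Ob libraries. On the log2 scale the difference was -0.10 (SE 0.394, limma, adjusted p = 0.985), the only value below 0 among the core genes. It was 0.29 without Ob + Exe replicate 1. The level rests on 921 to 1745 read equivalents per library, fewer than for any other core gene. Mtor overlaps Angptl7 on the other strand, which was between 0 and 0.514.

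**Figure D2:**
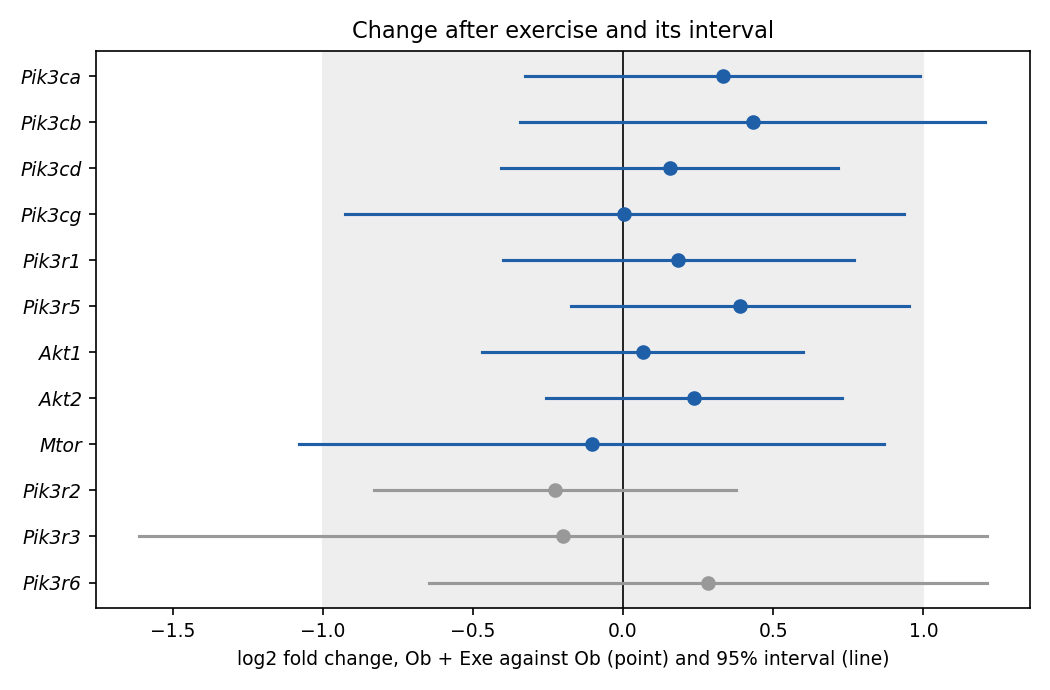
log2 fold change of Ob + Exe against Ob (point) with its 95% confidence interval from limma (line) for the 9 core genes in blue and 3 related genes in grey. The grey band spans -1 to 1. All the intervals include 0, and among the core genes those of Pik3cb and Mtor reach beyond the band.

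The intervals state what sizes of change these libraries leave possible. For 7 of the 9 core genes the 95% confidence interval lay within a log2 fold change of 1 in either direction. The interval of Akt2 ran from -0.26 to 0.73 and that of Akt1 from -0.47 to 0.60. The interval of Pik3r5 ran from -0.17 to 0.95 and that of Pik3ca from -0.33 to 0.99. That of Pik3cg was wide, from -0.93 to 0.94, around a value near 0. Pik3cb reached 1.21 and Mtor -1.08, so for these 2 genes a change by more than the threshold of the study could not be told from none. A p over the threshold does not show that the levels were equal.

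The differences between libraries of 1 group were not the same for all core genes. Within the groups, the SD of the log2 levels was 0.03 for Akt2 and 0.52 for Pik3cg. Over the 4 libraries of both groups, the highest was 1.94 times the lowest for Pik3cb, 1.86 times for Pik3cg and 1.78 times for Mtor. It was 1.24 times the lowest for Akt1 and 1.21 times for Akt2. Pik3cg and Mtor were higher in Ob replicate 1 and Ob + Exe replicate 2 than in the other libraries. For Pik3cb and Pik3r1 these 2 libraries were also the highest. Ob + Exe replicate 2 was the highest library for 6 core genes, the exceptions being Pik3cd, Akt1 and Akt2.

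Markers of cell types also differed between the libraries. Of 12 neutrophil markers, 11 were higher in the Ob + Exe group and 0 passed the test, and their summed level was 48012 and 27643 without exercise, compared with 35833 and 63360 after it. In 6 of these 12 markers, Ob replicate 1 and Ob + Exe replicate 2 were the highest libraries, as for Pik3cg, and in the other 6 they were not. Among the former, the chemokine receptor Cxcr2, a marker of mature neutrophils, was at 45.9 and 16.6, and at 20.4 and 78.2. Among the latter, Elane, an enzyme of early granules, was at 436 and 201, and at 393 and 345. Ob replicate 1 and Ob + Exe replicate 2 were also the highest in 2 of 10 T and NK cell and 2 of 10 erythroid markers. They were so in 1 marker each of the monocyte and macrophage, B lineage and muscle lists, and in 0 of the megakaryocyte and stromal lists. The share of all genes with this order was not counted. Of 9 B lineage markers, 8 were lower and 2 of them fell by the thresholds, Cd79a and Igll1 (summed levels 179 and 168, then 121 and 104). All 10 megakaryocyte and platelet markers were lower (summed levels 491 and 369, then 399 and 147). By the thresholds 3 of them fell, Gp1ba, Gp1bb and Treml1. Adjusted over all genes, limma gave p values between 0.943 and 0.960 for these and for Cd79a and Igll1. Of all genes, 3.71% passed the thresholds and 47.9% had a log2 fold change above 0. The part of these markers in the levels of the core genes was not tested.

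The 10 monocyte and macrophage markers summed to 457 to 519 in all 4 libraries, with 3 higher and 0 past the test. Of 10 T and NK cell markers, 5 were higher and 0 passed (50.6 to 84.5 summed). Of 10 erythroid markers, 3 were higher and 0 passed (54613 to 81737 summed). In the stromal list 5 of 10 were higher, and the list summed to 109 to 172. Col1a1 fell by the thresholds (limma, adjusted p = 0.960). The 6 muscle markers tested were all higher, at summed levels of 11.2 and 7.47 in the Ob group, and 16.9 and 15.1 after exercise. Acta1 rose by the thresholds (limma, adjusted p = 0.960), and Ckm and Mb were at 0 in Ob replicate 2. None of the markers of the other lists was at 0 in a library.

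**Figure D3:**
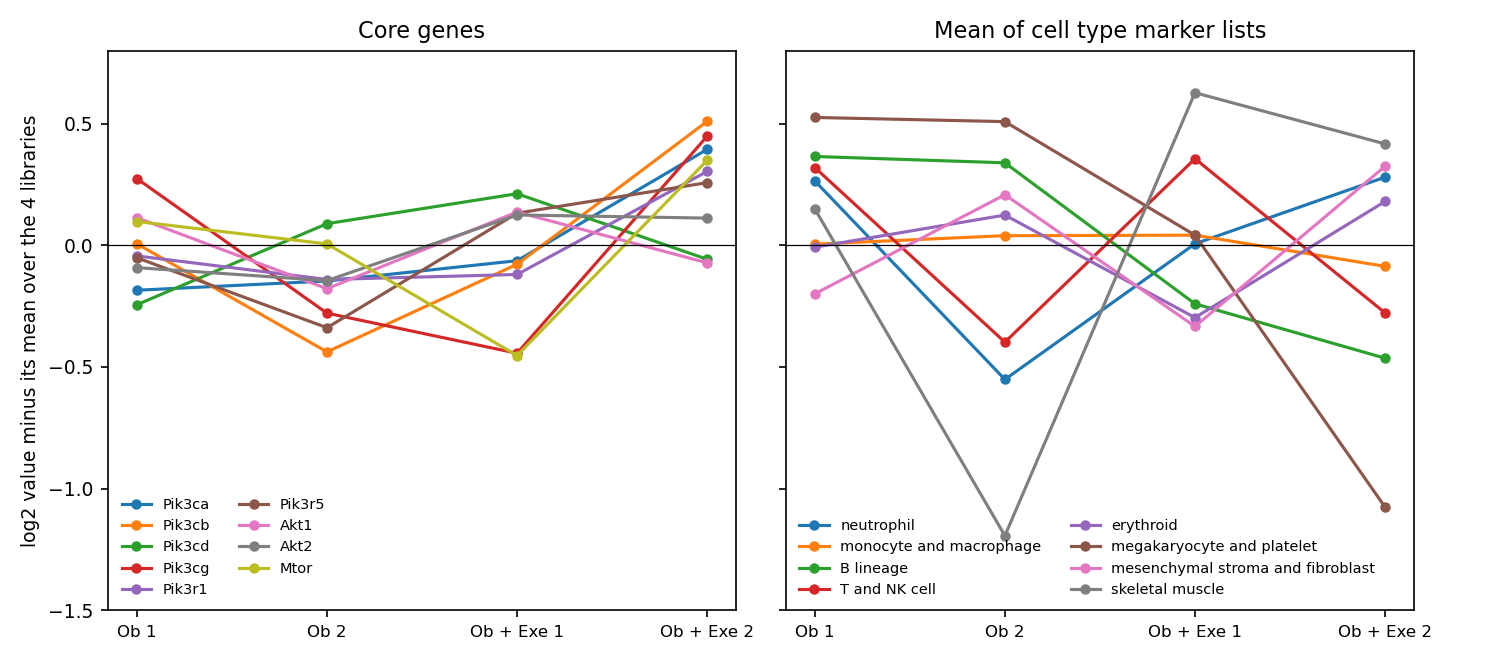
log2 level in each of the 4 libraries minus the mean over them, for the 9 core genes (left) and for the mean of each cell type marker list (right). The lines only join the values of a gene or list. Pik3cg and Mtor are above 0 in Ob replicate 1 and Ob + Exe replicate 2, and are lowest in Ob + Exe replicate 1, and the neutrophil list is lowest in Ob replicate 2.

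The division of the genes among their transcripts was examined next. All 67 transcripts had the same coordinates in GENCODE vM21. Of these, 24 were above 0 in all 4 libraries and 10 were at 0 in all, and 34 were tested among 46692 transcripts. By the same thresholds, 2 of the 34 changed, 1 of Pik3ca and 1 of Pik3cd, and 6.45% of all transcripts did. The groups did not overlap for 13 of the 34, and for 33.6% of all transcripts. StringTie divides reads from shared exons among the transcripts that contain them, so a transcript level is an estimate that depends on the few bases in which the models differ. The number that passed was higher in some fits that left out a library, and the share of all transcripts in those fits was not counted.

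At Pik3ca, ENSMUST00000029201.13 was higher in both Ob + Exe libraries and passed the thresholds before adjustment. Its level was 1.34 and 2.14 in Ob marrow, against 6.56 and 5.66 in Ob + Exe marrow. The groups were far apart, with a log2 fold change of 1.79 (SE 0.456, limma, adjusted p = 0.599 over all transcripts). The call was lost when Ob + Exe replicate 1 or replicate 2 was left out, at 1.68 and 1.88. ENSMUST00000108243.7, which starts upstream at base 32397671 instead of 32436151 and has the same coding region of 1068 codons, was at 7.14 and 6.58, and at 2.36 and 0. It was lower in both Ob + Exe libraries, but did not pass the test (log2 fold change -3.81, SE 1.68, limma, adjusted p = 0.810 over all transcripts). Among the alternatives with all 4 libraries, it did pass the thresholds with a pseudocount of 1 (log2 fold change -2.10) and with the replicate block. The value was -6.12 without Ob + Exe replicate 1 and -1.51 without Ob + Exe replicate 2.

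The upstream start therefore held 83.5% and 74.9% of Pik3ca in Ob marrow, against 25.4% and 0% after exercise. The downstream starts held 15.7% and 24.3%, and then 70.5% and 99.0%. In Ob + Exe replicate 2, the highest model was ENSMUST00000108242.1, which has 946 codons and was at 7.03 there and at 0 in the other 3 libraries. That transcript ends at the same last base as the upstream model, 32466107, so models with this earlier end held 83.5% and 74.9%, and then 25.4% and 54.8%. The gene as a whole moved far less than its models did.

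**Figure D4:**
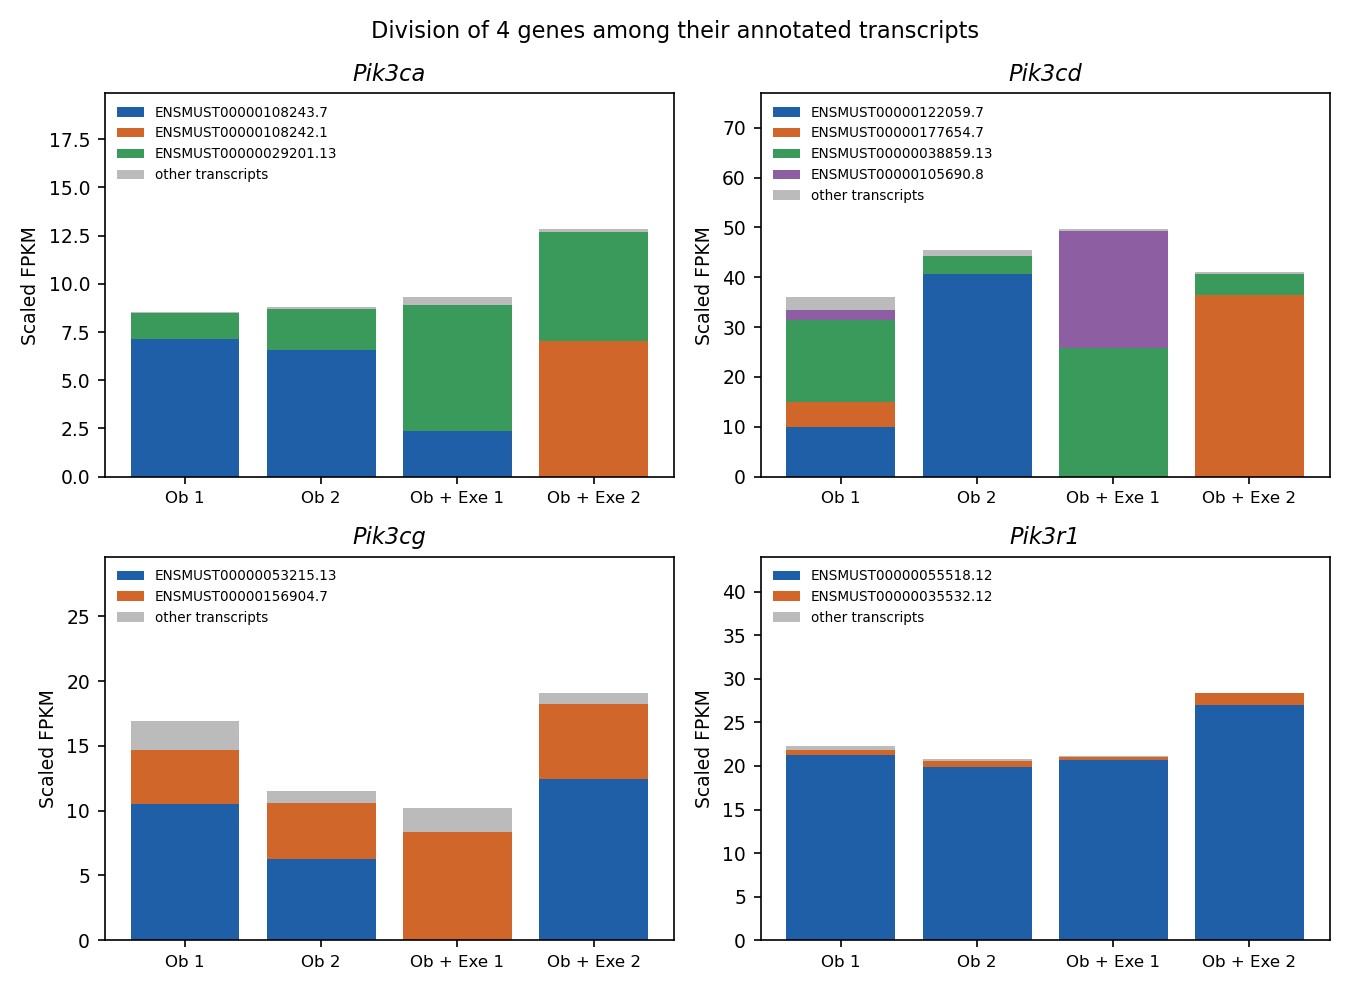
Scaled FPKM of the main annotated transcripts of Pik3ca, Pik3cd, Pik3cg and Pik3r1, stacked to the level of the gene in each of the 4 libraries. The division of Pik3r1 is alike in all libraries, and the leading model of Pik3cd differs between the libraries of either group.

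Pik3cd shows how far such a division can move between libraries of the same group. ENSMUST00000122059.7, with 1040 codons, was at 10.01 and 40.6 in the Ob libraries and was listed at 0 in both Ob + Exe libraries, and it passed the thresholds as lower (limma, adjusted p = 0.251 over all transcripts). ENSMUST00000177654.7, with 1047 codons, was at 4.96 and 0, and at 0 and 36.5. ENSMUST00000105690.8, also with 1047 codons, was at 1.96 and 0.0791, and at 23.4 and 0. ENSMUST00000038859.13, with 1045 codons, was at 16.4 and 3.65, and at 25.8 and 4.09. Of these models, 3 different ones led in the 4 libraries, and the leading model differed between the libraries of either group. The 7 models with a full coding region added up to 97.6% to 99.3% of the gene in all 4 libraries, so the level of Pik3cd itself did not follow these shifts.

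Pik3cg also changed its leading model. ENSMUST00000053215.13, the main protein-coding model with 1102 codons, was at 10.5 and 6.25 without exercise, compared with 0 and 12.4 after it. In Ob + Exe replicate 1 no protein-coding model was above 0. The reads there lay mostly on ENSMUST00000156904.7, which has the same coding region but is annotated as nonsense-mediated decay, and which was at 4.17 and 4.34, and at 8.31 and 5.81. For the other core genes a single coding model led in every library. It held 93.2% to 99.9% of Pik3cb, 96.0% to 99.0% of Pik3r5, 83.9% to 96.4% of Akt2 and 68.8% to 90.1% of Mtor.

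The other genes of the pathway were followed in 11 lists with 83 genes, of which 81 were tested and 2, Irs1 and Pik3c2g, were too low. Of the 81, 42 were higher and 39 lower in the Ob + Exe group, with a median log2 fold change of 0.02. None passed the thresholds and none had an unadjusted p under 0.05 (limma), and none passed with limma voom, when 3.71% of all genes passed the thresholds and 5.02% had such a p in the fit with all 4 libraries. The number that passed was higher in the fits that left out an Ob + Exe library, and so was the number over all genes. In those fits the lone Ob + Exe library is assumed to vary like the Ob group. The groups did not overlap for 15 of the 81, against 32.7% of all genes. The core genes thus had a higher median than the rest of the pathway, 0.18 against 0.02, a difference that was not tested.

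**Figure D5:**
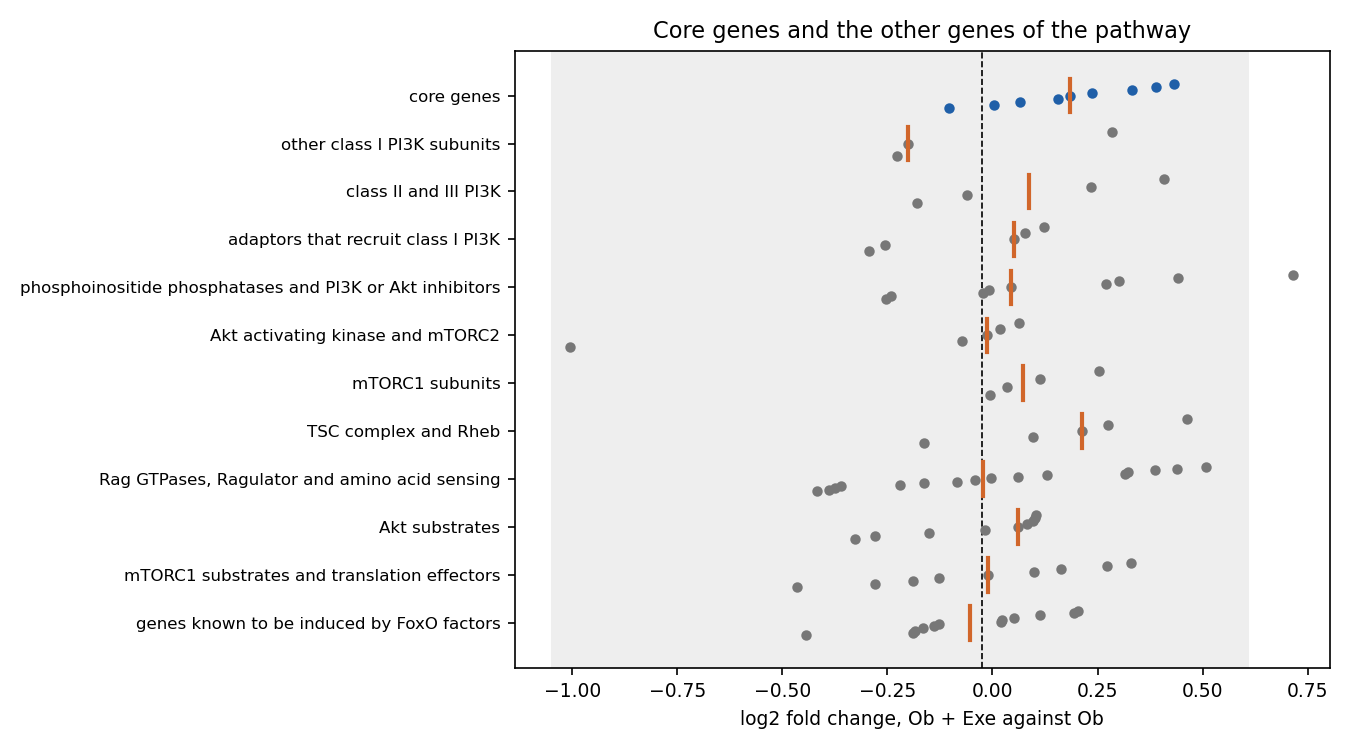
log2 fold change of Ob + Exe against Ob for the 9 core genes (blue) and for 81 other pathway genes in 11 lists (grey), with the median of each list in orange. The dashed line is the median of all genes tested, -0.02, and the grey band spans their percentiles 10 to 90, from -1.05 to 0.61. No list median lies outside the band, and they run from -0.20 to 0.21.

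Upstream of PI3K, the adaptors that bring it to receptors had 3 higher and 2 lower genes. Pik3ap1, an adaptor of B cells and myeloid cells, was at 14.1 and 13.6 in Ob marrow, against 10.02 and 12.7 in Ob + Exe marrow. Its groups did not overlap (log2 fold change -0.29, SE 0.239, limma, adjusted p = 0.960). Among the phosphatases and inhibitors that oppose the pathway, 5 were higher and 4 lower. Inpp5d, which encodes SHIP1 of blood cells, was at 23.2 and 29.2, and at 29.2 and 22.9. Inpp4a, a phosphatase of the lipid products, was at 13.8 and 12.8, and at 17.7 and 18.5 (log2 fold change 0.44, SE 0.212, limma, adjusted p = 0.960). Like Pik3r5, it was higher in both Ob + Exe libraries.

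Around Akt and mTOR no gene passed the test either. PDK1 (Pdpk1), the kinase that activates Akt, was at 14.9 and 11.9 in Ob marrow, against 10.01 and 18.2 in Ob + Exe marrow. Prr5, of mTOR complex 2, was at 1.78 and 1.66, and at 2.13 and 0.268. Its log2 fold change of -1.01 (SE 0.880, limma, adjusted p = 0.960) was the lowest of the 81 pathway genes. The Ob + Exe libraries were its highest and its lowest. The shared mTOR subunit Mlst8 stayed between 17.0 and 19.9. Deptor, an inhibitor within the mTOR complexes, was at 1.51 and 1.41, and at 1.80 and 1.72. Rheb, the activator of mTOR complex 1, was at 26.9 and 27.3, and at 26.8 and 40.1, which sets Ob + Exe replicate 2 apart as for Pik3ca. Of the TSC and Rheb genes 4 of 5 were higher, and of the 16 Rag, Ragulator and amino acid sensing genes 7 were. In the latter list, Lamtor4 was at 36.8 and 45.3, and at 81.6 and 37.6, and Lamtor5 was at 27.1 and 29.1, and at 37.4 and 33.0.

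Downstream, 5 of 9 Akt substrates and 4 of 9 mTOR complex 1 substrates and translation effectors were higher. Gsk3a, a kinase that Akt inhibits, was at 49.1 and 45.5 without exercise, compared with 33.9 and 41.9 after it (log2 fold change -0.33, SE 0.211, limma, adjusted p = 0.960). The cell cycle inhibitor Cdkn1b was at 62.2 and 75.6, and at 67.8 and 77.6. Rps6, the ribosomal protein phosphorylated by S6 kinase, was between 820 and 982. The S6 kinase gene Rps6kb2 was at 16.2 and 22.0, and at 17.7 and 10.5. Of 12 genes known to be induced by FoxO factors, which Akt keeps out of the nucleus, 6 were higher and 6 lower. Klf2 had the smallest p of all 81 genes, at 55.3 and 53.6, and at 41.9 and 38.2 (log2 fold change -0.44, SE 0.192, limma, adjusted p = 0.960). Txnip was between 120 and 145 in all 4 libraries.

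Class II and III PI3K, which make other lipids and serve endosomes and autophagy, had 2 higher and 2 lower genes. Pik3r4, the regulatory subunit of the class III enzyme, was at 4.77 and 7.68 in the Ob group, and 11.3 and 4.51 after exercise. Pik3c2a was at 3.93 and 3.12, and at 3.56 and 6.14. Neither difference passed the test.

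For each core gene, the pathway gene with the most similar profile was taken as that with the smallest root mean square difference of centred log2 levels over the 4 libraries, among 78 genes. This was Trp53inp1 for Pik3cg (0.03), with levels of 36.6 and 26.0 in Ob marrow, against 23.1 and 44.2 in Ob + Exe marrow. It was Irs2 for Pik3cd (0.03), Bad for Akt1 (0.04) and Deptor for Akt2 (0.02). For Pik3ca it was Rheb (0.05), for Pik3cb Eif4ebp2 (0.05) and for Pik3r1 Foxo3 (0.05). For Pik3r5 it was Inpp4a (0.07), and for Mtor Bcl6 (0.09). With 4 libraries and 78 candidates some profiles are close in any case, and this likeness is a description.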

How the data were processed

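The authors trimmed the reads with fastp, aligned them to GRCm38 with HISAT2 and quantified GENCODE transcripts with StringTie. The tables they deposited, 1 for each library, list every transcript with its FPKM and its coverage, a signal that depends on depth. No read counts were used here, so the count test of the authors, DESeq2, could not be the main test.

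FPKM were summed per gene, genes whose mean FPKM reached 0.1 were kept, and median-of-ratios factors, taken from genes whose mean reached 1, were used to scale the libraries. After adding 0.1, log2 values were tested across all 18596 genes with limma 3.58.1 in R 4.3.3 (lmFit, eBayes with an intensity trend, 2 residual and 3.73 prior degrees of freedom), and p values were adjusted by Benjamini-Hochberg. Fold changes are on this log2 scale, which understates those of low genes. The gene test was also run on simulated gene levels with large changes. That simulation covered neither small changes nor the division among transcripts. Transcripts were fitted in the same way as genes. Tables and figures were made with Python 3.11.15, pandas 2.3.3 and matplotlib 3.10.9. Promoter windows are 250 bases before RefSeq starts.

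The genes named are the 9 core genes, their paralogs, and from each pathway list the highest gene and that with the smallest p. The core genes, lists and tests were chosen with earlier results of these data known. A few genes of these lists, and a planned share that needs one of them, are not reported here. Some markers beside them (Pdgfra, Lum, Dcn, Cxcl12, S100a8, Hba-a1, Cxcr2, Elane and those past the test) were chosen after their values were seen. The alternatives were other pseudocounts and minimum values, quantile normalization or no scaling, no trend, limma voom on read equivalents, the replicate block, read equivalents or the most abundant transcript for the share, and leaving out each library. At 44310500 to 53038200 read equivalents per library, the 2 libraries per group limit the precision.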

Additional observations from a re-analysis of the deposited data

How the results depend on the processing

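No core gene passed the thresholds, and none had an unadjusted p under 0.05, in any alternative. The direction turned for the smallest changes. Pik3cg was at -0.0777 without scaling, -0.0340 with quantile normalization and -0.105 with limma voom, and Akt1 was at -0.0177 without scaling, where the median of all genes moved from -0.02 to -0.10. Leaving out each library in turn gave -0.449 to 0.448 for Pik3cg, -0.0910 to 0.203 for Akt1, -0.0194 to 0.311 for Pik3cd, -0.0352 to 0.393 for Pik3r1 and -0.512 to 0.295 for Mtor. It gave 0.0952 to 0.557 for Pik3ca, 0.131 to 0.723 for Pik3cb, 0.236 to 0.526 for Pik3r5 and 0.200 to 0.256 for Akt2. The same gave -7.14 to 0.119 percentage points for the share of Pik3cd and Pik3cg. With only the most abundant transcript of each gene, this difference was -42.9. For Pik3cd that transcript was ENSMUST00000122059.7, listed at 0 in both Ob + Exe libraries, so this measure depends on the division among transcripts. The causes were not tested. In the alternatives with all 4 libraries, no pathway gene and 2 to 3 transcripts of core genes passed the thresholds. These numbers changed in some of the fits that left out a library. In these fits the lone library of a group is assumed to vary like the other group.

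The differences of replicate 1 and 2 in the groups correlated at -0.106 over all genes. Over those whose mean FPKM was 1 or more, the correlation was -0.235. No positive correlation was thus seen, but this cannot exclude a pairing or batch that follows the replicate numbers. With the replicate block, 776 genes passed instead of 690, and 28 had an adjusted p under 0.05 instead of 0. No core gene passed, and the Pik3ca transcript ENSMUST00000029201.13, still at 1.79, no longer did, while ENSMUST00000108243.7, still at -3.81, now did. With the crossed pairing as a block, chosen after seeing the data, 782 genes passed and 6 had an adjusted p under 0.05. Over all genes, 224 passed with a pseudocount of 1, 267 with a minimum mean FPKM of 1, 453 with limma voom and 1061 without the trend. What a greater depth would change was not tested.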
